A study of Mus musculus with 8 samples.

Results

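Solute carriers are membrane proteins that move amino acids, sugars, ions, transmitters and vitamins across the cell surface and the membranes of organelles. The carriers described here were all genes whose symbol has the form of a numbered Slc family and member, outside the families Slc25, Slc30, Slc35 and Slc39, with a mean of at least 5 TPM over 8 hippocampal libraries. TPM is the read number of a gene per length of its exons, scaled to the same total in each library. Of 256 such carriers in the table, 125 met the limit, 131 lay under it, and 9 of these 131 were at 0 in every library. The table held 46983 genes and 332 numbered Slc genes of any family. The members were chosen by their mean TPM over both groups, so their levels are a description, while the difference between the groups was not used in the choice. Just inside the limit were Slc26a10 with a mean of 5.32 TPM and Slc16a13 with 5.52 TPM. Just outside it were Slc16a9, with 4.94 TPM, and Slc27a2, with 4.66 TPM.

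RNA-Seq was done on the hippocampus of 4 XBP1s-TG mice, which carry TRE-XBP1s and Camk2a-tTA, and of 4 mice labelled Control. All were C57BL/6 mice, 2 months old, sampled 7 days after doxycycline (Dox) was removed. XBP1s is the spliced, active form of XBP1, a transcription factor of the unfolded protein response, the programme that enlarges the endoplasmic reticulum (ER) and its secretory output. The Camk2a promoter drives tTA in forebrain excitatory neurons, whereas the RNA came from the whole hippocampus, with its interneurons, glia, vessels and any attached tissue. The alleles of the control mice are not given in the labels. The question was what XBP1s in these neurons does to hippocampal gene expression, here for the carriers.

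In neurons, vesicular carriers load glutamate or GABA into vesicles, surface carriers of neurons and astrocytes take the transmitters up again, and cation-chloride cotransporters set the chloride gradient that GABAA receptors use. The choroid plexus and the leptomeninges carry other sets, which move ions, vitamins and organic anions between blood and cerebrospinal fluid. Carriers of the ER, Golgi and lysosome supply these organelles with acetyl-CoA, sugars, protons and metals or let breakdown products out of the lysosome.

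The libraries held 34873420 to 52134611 reads in genes, and 1 read per kilobase of exon was 0.0604 to 0.0900 TPM. Members held 11 to 158695 reads in a library. Xbp1, which counts the transgene too, was at 786, 549, 1094 and 729 TPM in the XBP1s-TG libraries S1 to S4. It was thus highest in S3, then S1, and lowest in S2. In Control it was at 68.9 to 71.9 TPM. S1 and S3 stood apart from the other libraries in genes of the choroid plexus, whose 12 marker genes summed to 88.9 TPM for S1 and to 186 TPM for S3. The sum was 5196 TPM in S2, 9229 TPM in S4 and 4067 to 9020 TPM in the control libraries (S5 to S8). A single plexus gene, Ttr, came close to these sums, so their size is mainly that of 1 gene. It was at 70.1, 4962, 162 and 8827 TPM in S1 to S4 and at 3876 to 8627 TPM in Control. In Control, S8 had the lowest TPM of 90 of the 125 carriers. Fold changes below are log2 values of TPM + 2 after quantile normalization, so they understate the ratio of low genes. A carrier rose or fell where limma gave a Benjamini-Hochberg adjusted p under 0.05 over 11677 genes tested and a fold change of at least 1.5, which is 0.585 on the log2 scale.

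In XBP1s-TG mice 13 of the 125 carriers rose and 4 fell. The fallers included Slc8a2, Slc29a4 and Slc6a7. Of all genes tested 4.96% rose and 2.42% fell, against 10.4% and 3.2% of the carriers. The median log2 fold change was 0.02 over the carriers and -0.04 over all genes tested, and 69 of the 125 carriers had a positive value. At the adjusted p alone, 37 carriers (29.6%) were higher and 20 (16.0%) lower, against 22.3% higher and 26.1% lower of all genes tested. In TPM, all XBP1s-TG libraries exceeded all control libraries for 48 carriers, and all were lower for 10. Over all genes these shares were 31.3% and 11.9%. On plain TPM, with no quantile step, the median of all genes was 0.06 in place of -0.04. That of the carriers was then 0.13, with 83 of the 125 positive, and 17 carriers rose and 1 fell. Upward calls were then 94.44% of the calls against 76.47% before. All genes shifted the same way, with 786 risen and 171 fallen on plain TPM against 579 and 282 before. Where S1 and S3 were left out, which leaves S2 and S4 in XBP1s-TG, 8 carriers rose, all 8 among the 13. Another 2 fell, of which Slc8a2 was one of the 4. Among all genes 450 then rose and 169 fell, against 579 and 282 with all libraries. S1 and S3 were low in plexus markers and also had the most Xbp1, so this setting cannot tell these apart. The summed TPM of the carriers was 9267 to 9562 in XBP1s-TG and 7915 to 8496 in Control.

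**Figure D1:**
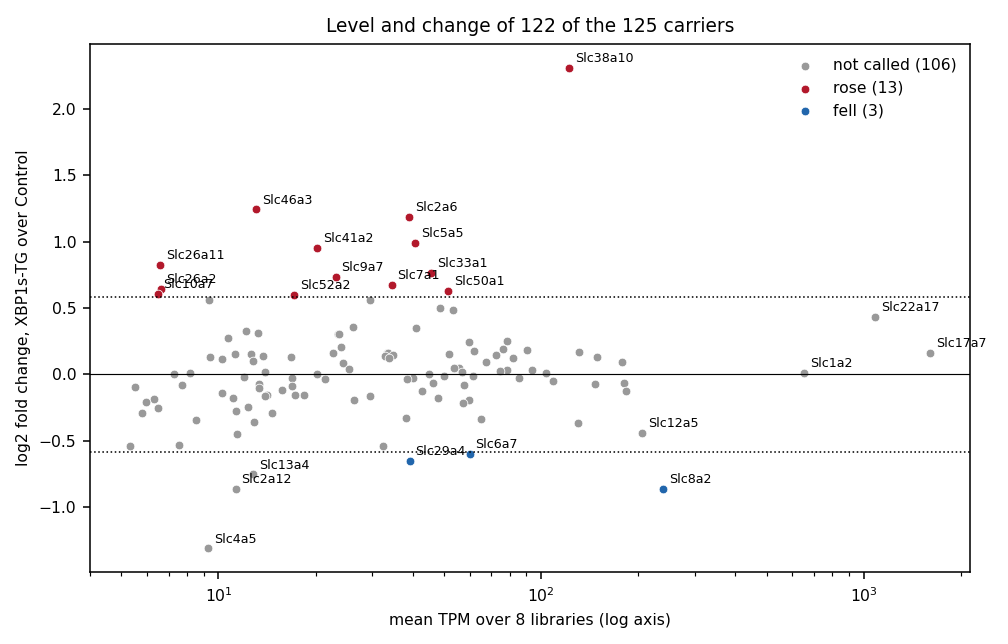
Each point is 1 carrier of the 122 drawn of 125, with its mean TPM over 8 libraries on a log axis and its log2 fold change of XBP1s-TG over Control. Dotted lines mark the 1.5-fold limit. Slc38a10 stands alone at 2.31, and the most abundant carriers, Slc17a7, Slc22a17 and Slc1a2, lie between 0.01 and 0.43.

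The stretches upstream of the risers are shown because XBP1 is known to bind motifs with an ACGT core in promoters of genes of the secretory pathway. They are the 250 bases before the RefSeq start (GRCm38.p6) of the 3 carriers with the largest rise and of Slc33a1, the riser with a longer match, written 5′ to 3′ on the minus strand, where all 4 genes lie. Capitals mark ACGT and, in Slc33a1, also the whole of the match to GCCACGT on the opposite strand, which reads ACGTGGC here.
Slc38a10: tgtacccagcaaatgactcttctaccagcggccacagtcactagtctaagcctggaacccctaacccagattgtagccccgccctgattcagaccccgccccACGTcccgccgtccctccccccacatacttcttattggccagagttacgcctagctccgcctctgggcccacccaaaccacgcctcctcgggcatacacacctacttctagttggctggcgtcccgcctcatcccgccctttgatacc
Slc46a3: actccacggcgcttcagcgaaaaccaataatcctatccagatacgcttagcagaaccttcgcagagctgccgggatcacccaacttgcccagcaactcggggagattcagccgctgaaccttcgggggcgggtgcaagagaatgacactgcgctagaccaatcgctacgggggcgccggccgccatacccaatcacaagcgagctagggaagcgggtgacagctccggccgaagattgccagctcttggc
Slc2a6: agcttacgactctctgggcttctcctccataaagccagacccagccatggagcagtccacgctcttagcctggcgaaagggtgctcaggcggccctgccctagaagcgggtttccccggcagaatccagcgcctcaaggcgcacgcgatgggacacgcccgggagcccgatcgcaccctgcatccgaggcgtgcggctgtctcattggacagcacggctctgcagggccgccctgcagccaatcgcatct
Slc33a1: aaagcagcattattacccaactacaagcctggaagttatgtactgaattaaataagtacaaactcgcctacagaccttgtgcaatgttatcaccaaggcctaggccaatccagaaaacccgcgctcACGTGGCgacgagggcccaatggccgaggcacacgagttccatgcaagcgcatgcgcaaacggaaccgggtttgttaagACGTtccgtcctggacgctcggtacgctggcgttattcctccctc
They cover chr11:120151352-120151601 for Slc38a10, chr5:147894816-147895065 for Slc46a3, chr2:27027999-27028248 for Slc2a6 and chr3:63964734-63964983 for Slc33a1. RefSeq promoters of 300 bases (250 before the start and 50 after) were matched for 94 of the 125 carriers, 10 of the 13 that rose and 2 of the 4 that fell. GCCACGT, searched on both strands, was in 1 of these 10, in 0 of the 2, in 11.0% of the 82 not called and in 10.6% of the 94 carriers. It was in 2.95% of 27025 genes with such a promoter. Those genes were not limited to 5 TPM, so the sets are unlike. A gene counted if any of its promoters matched, with 128 promoters for the 94 carriers and 32851 for the 27025 genes. TGACGTGG was in 0 of the 10 risers, 2.13% of the carriers and 0.714% of all genes. The longer ER stress elements, ERSE (CCAAT, then 9 free bases, then CCACG) and ERSE-II (ATTGG, then 1 free base, then CCACG), were in 0 of the 94 carriers. The 4 letters ACGT, chosen after the longer motifs had been counted and contained in GCCACGT and TGACGTGG, were in 5 of the 10 risers, 40.4% of the 94 carriers and 33.8% of all genes. Slc38a10 holds ACGT once, and Slc46a3 and Slc2a6 do not hold it in this window. A match is a description of the letters only.

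Slc38a10 had the largest rise of the carriers. It encodes a carrier of the sodium-coupled neutral amino acid family that lies in the ER and Golgi, and its gene (ENSMUSG00000061306) spans chromosome 11 from 120103960 to 120151346 on GRCm38. Its levels were 205 TPM in S1, 173 in S2, 268 in S3 and 186 in S4, against 36.02 in S5, 38.4 in S6, 36.8 in S7 and 35.6 in S8. All 4 XBP1s-TG libraries were far above all 4 control libraries, and S3 was the highest. The means were 208 ± 42.2 TPM and 36.7 ± 1.23 TPM (SD, n = 4 each), a log2 fold change of 2.31 (SE 0.10, adjusted p = 1.73e-06 from limma). These values rest on 13238 to 20948 reads per library in XBP1s-TG and 2632 to 3826 in Control. A share of 5.72% of its exon bases is also in Gm11769 on the other strand, a gene with a mean of 0.790 TPM.

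Slc33a1 moves acetyl-CoA from the cytosol into the ER lumen, where it serves the acetylation of proteins and gangliosides. It was at 58.2, 53.7, 66.0 and 61.2 TPM in S1 to S4 and at 35.1, 31.1, 31.9 and 27.6 TPM in S5 to S8. The groups did not overlap, and the log2 fold change was 0.77 (SE 0.06, adjusted p = 2.55e-05 from limma). Slc9a7, a sodium-proton exchanger of the Golgi, had 32.8, 28.4, 29.6 and 29.6 TPM against 17.7, 16.8, 17.2 and 12.6 TPM, a log2 fold change of 0.73. Slc50a1, the mammalian SWEET sugar carrier, which lies in the Golgi, was at 57.8 to 73.1 TPM against 35.7 to 40.7 TPM (log2 fold change 0.63, or 0.52 without S1 and S3, under the fold limit). Slc10a7, a Golgi protein of the bile acid carrier family that does not itself take up bile acids and is needed for proteoglycan synthesis, was at 7.13 to 10.5 TPM against 4.28 to 5.15 TPM. Its log2 fold change was 0.61 (SE 0.11, adjusted p = 0.00136 from limma), and it missed the fold limit without S3 (0.51), S5 (0.584) or S6 (0.58).

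Carriers of the endosome and lysosome came next. Slc46a3, a lysosomal carrier related to the proton-coupled folate transporter, had 19.7, 16.1, 23.5 and 19.1 TPM in S1 to S4 and 6.98, 6.43, 6.18 and 6.83 TPM in S5 to S8. Each XBP1s-TG library was far above any control library, and the log2 fold change was 1.24 (SE 0.10, adjusted p = 2.23e-05 from limma). Slc2a6, the lysosomal hexose carrier GLUT6, had 56.5, 51.1, 68.8 and 49.4 TPM against 20.7, 21.3, 21.0 and 23.8 TPM. This was a log2 fold change of 1.19 (SE 0.10, adjusted p = 2.58e-05 from limma) with no overlap. Slc26a11, a sulfate and chloride carrier found in lysosomes, was at 7.05 to 11.0 TPM against 3.81 to 4.43 TPM, from 333 to 483 and 159 to 236 reads (log2 fold change 0.82).

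A list by where the protein is known to lie was made after the values had been seen. All 25 carriers put on it for the endosome, lysosome, ER or Golgi had positive log2 fold changes. This count depends on which carriers were put there. Slc9a5 (-0.54), Slc16a11 (-0.45) and Slc12a9 (-0.16), all lower at the adjusted p, were not placed in these organelles. Of these 25, 8 rose and 0 fell, 18 were higher at the adjusted p alone and 0 lower. In TPM, 19 had every XBP1s-TG library above every control library. Over all genes tested 4.96% rose and 2.42% fell, and 22.3% were higher and 26.1% lower at the adjusted p alone. In TPM, 31.3% of all genes were above Control in every library and 11.9% below. On plain TPM all 25 were positive too and 11 rose, with median centring 22 were positive and 7 rose, and without S1 and S3 24 were positive and 6 rose. The unequal-variance test called 8 up and voom on reads recovered from the TPM values called 9 up, each with 0 down, and at an unadjusted p under 0.05 limma had 18 higher and 0 lower. Their median log2 fold change was 0.33, against -0.03 over the other 100 carriers, of which 5 rose, 4 fell and 44 had positive values. The list held 7 carriers of the ER and Golgi, of which 5 rose. Slc9a8, another Golgi sodium-proton exchanger, had 0.31 (adjusted p = 0.0015 from limma), and Slc37a4, the glucose-6-phosphate carrier of the ER, had 0.04 with a 95% interval from -0.07 to 0.16. Among the 18 endosomal and lysosomal carriers 3 rose, and the lowest values were those of Slc9a9 (0.00) and Slc17a5, the sialic acid carrier of the lysosome (0.01). Several passed the adjusted p short of 1.5-fold. These included Slc11a2 (DMT1, which takes iron out of endosomes) with 0.56, Slc36a1 (a lysosomal exporter of small amino acids) with 0.50, Slc36a4 of the same family with 0.49 and Slc37a3 with 0.35. Slc11a2 was at 34.2 to 39.02 TPM in XBP1s-TG and 19.5 to 24.9 TPM in Control, without overlap, and rose where S7 was left out (0.60). As the list was made from these values, its counts support nothing beyond themselves.

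**Figure D2:**
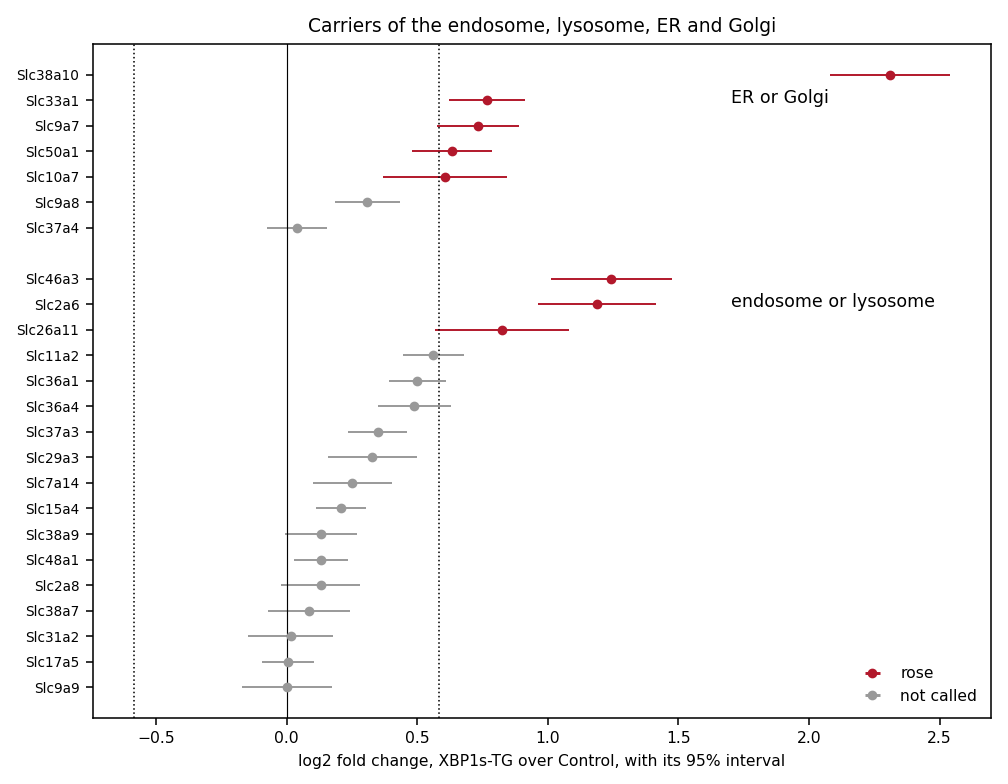
Points are the log2 fold changes of XBP1s-TG over Control, with 95% intervals from limma. They cover the 7 carriers listed for the ER or Golgi and 17 of the 18 listed for the endosome or lysosome. Dotted lines mark the 1.5-fold limit. All 24 points drawn lie above 0, whereas 22 of the 25 carriers do with median centring, and the 8 in red rose.

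Among the 28 carriers of amino acids and peptides, 2 rose and 1 fell, with a median log2 fold change of 0.09. Slc7a1, the surface carrier CAT1 that brings arginine and lysine into cells, had 45.5, 37.0, 51.5 and 43.0 TPM in S1 to S4 and 23.8, 26.0, 25.4 and 23.4 TPM in S5 to S8. The groups did not overlap, and the log2 fold change was 0.68 (SE 0.08, adjusted p = 0.000132 from limma), or 0.55, under the fold limit, without S1 and S3. Slc7a1 is also one of 9 carriers listed as targets of the integrated stress response, in which ATF4 raises amino acid uptake. It was the 1 of the 8 tested that rose in limma, and 0 of the 8 fell. At an unadjusted p under 0.05, 2 were higher and 1 lower, and voom and the unequal-variance test also called 1 up and 0 down. The others of that list included Slc7a5 (LAT1, large neutral amino acids) with 0.19 (adjusted p = 0.0873 from limma) and its partner Slc3a2 with 0.01 (95% interval -0.08 to 0.10). Slc7a11, the cystine-glutamate exchanger, had -0.28 (adjusted p = 0.0619 from limma), and Slc38a2 had 0.18 and Slc1a4 had -0.08. Slc7a3, an arginine carrier, had -0.21 and Slc6a9, a glycine carrier, had 0.13.

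Slc6a7 fell. It encodes the proline carrier of glutamatergic terminals and was at 46.7, 58.5, 46.4 and 47.9 TPM in S1 to S4 and at 70.3, 70.4, 68.5 and 71.3 TPM in S5 to S8. All 4 XBP1s-TG libraries were below Control, S2 by the least, with a log2 fold change of -0.60 (SE 0.08, adjusted p = 0.00029 from limma). It missed the fold limit without S1 (-0.57), S3 (-0.56) or S8 (-0.57) and without the normalization across libraries (-0.48). Slc6a15, a carrier of branched amino acids in neurons, was also below Control in all libraries, at 51.7 to 67.7 TPM against 68.1 to 72.2 TPM (-0.33, adjusted p = 0.00534).

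Sugar carriers numbered 11, with Slc2a6 and Slc50a1 risen, none fallen and a median of 0.15. Slc2a1, the glucose carrier of the blood-brain barrier, was at 72.3 to 85.2 TPM against 56.8 to 74.7 TPM, with overlap (0.14, 95% interval -0.04 to 0.33). Slc2a3, the glucose carrier of neurons, had -0.20 (adjusted p = 0.00183 from limma), at 55.7 to 59.5 TPM against 58.5 to 63.7 TPM. Of the metal ion carriers 1 of 6 rose. Slc41a2, a magnesium carrier, had 28.4, 25.8, 31.3 and 26.6 TPM against 12.4, 13.1, 12.4 and 12.1 TPM. All XBP1s-TG libraries lay well above Control, and the log2 fold change was 0.95 (SE 0.06, adjusted p = 4.52e-06 from limma). Its relative Slc41a1 had 0.02 (95% interval -0.09 to 0.13). Slc48a1, the heme carrier of endosomes and lysosomes and the most abundant of these 6, had 0.13, with an adjusted p of 0.131 without S1 and S3.

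Carriers of bicarbonate, chloride and sulfate, with which the iodide carrier Slc5a5 was classed, held 3 risers of 13 and no faller. The risers were Slc5a5, Slc26a11 and Slc26a2, but the median of the class was -0.15. This median was -0.07 on plain TPM and -0.00 without S1 and S3. Slc5a5, the sodium-iodide symporter known from the thyroid, was at 55.2, 45.2, 72.5 and 53.7 TPM in S1 to S4 and 26.3, 26.0, 23.5 and 23.4 TPM in S5 to S8. The groups did not overlap, and the log2 fold change was 0.99 (SE 0.11, adjusted p = 0.000118 from limma). Slc26a2, a sulfate carrier needed for proteoglycans of cartilage, was at 7.70 to 9.61 TPM against 4.04 to 5.10 TPM (0.64). Without S1 and S3 it was at 0.57, under the limit. Slc26a10 had 4.33, 4.73, 4.23 and 3.01 TPM against 5.49, 6.16, 7.62 and 6.99 TPM, a log2 fold change of -0.54 (adjusted p = 0.00537 from limma), and fell where S2 was left out (-0.59), where S5 was (-0.61), or where S1 and S3 were (-0.61). A share of 17.8% of its 4027 exon bases in GENCODE M21 is also in B4galnt1 on the other strand, at a mean of 117 TPM. The exon length behind its TPM was 2215 bases, so the share of the bases counted is not known. The strand setting of the counting is not given in the sources used here. Slc4a10, a neuronal bicarbonate carrier and the most abundant of the 13, was at 99.4 to 135 TPM against 118 to 156 TPM (-0.37, adjusted p = 0.0238 from limma). Without S1 and S3 it had -0.19 (adjusted p = 0.182), and without S1, S3, S5 or S6 alone the adjusted p was 0.0532 to 0.0656. Slc4a4, the astrocyte bicarbonate carrier, was at 65.9 to 69.1 TPM against 46.2 to 56.6 TPM (0.25, adjusted p = 0.00533).

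**Figure D3:**
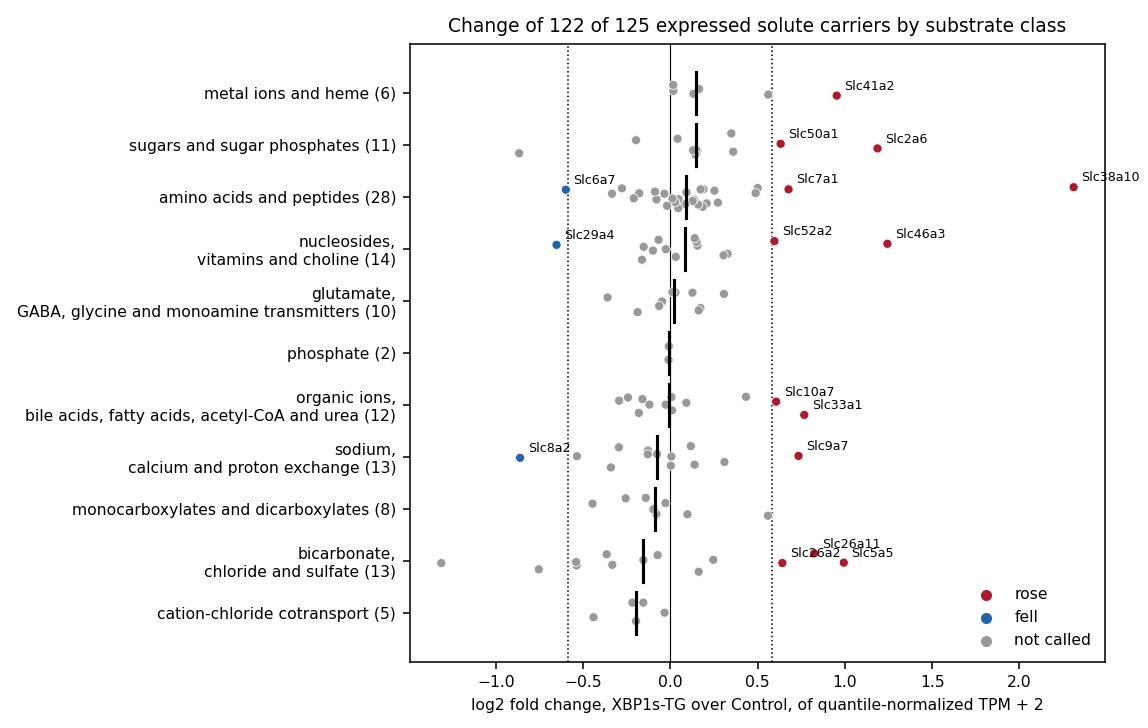
Each point is 1 of 122 carriers, placed by its log2 fold change of XBP1s-TG over Control in its substrate class, with the number drawn in brackets. Black bars are medians of the carriers drawn and dotted lines the 1.5-fold limit. Class medians run from -0.20 for cation-chloride cotransport to 0.15 for sugars and for metal ions.

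Of the 14 carriers of nucleosides, vitamins and choline, Slc46a3 and Slc52a2 rose and Slc29a4 fell. Slc52a2, a riboflavin carrier, was at 18.9 to 24.6 TPM against 10.7 to 14.5 TPM (0.60, SE 0.08, adjusted p = 0.000293 from limma). It lost the fold limit without S1 (0.58), S3 (0.54), S5 (0.58) or S8 (0.57). The 12 carriers of organic ions held Slc33a1 and Slc10a7 as risers. Their most abundant member was Slc22a17, a receptor of lipocalin-2, with 1240, 1172, 1335 and 1256 TPM in S1 to S4 and 864, 976, 935 and 882 TPM in S5 to S8. These groups did not overlap, and the log2 fold change of 0.43 (SE 0.04, adjusted p = 6.17e-05 from limma) was under the fold limit. The 2 phosphate carriers, Slc20a1 and Slc20a2, both had -0.01. Slc13a5, the citrate carrier of the plasma membrane, had 0.56 (adjusted p = 0.00017 from limma), at 11.0 to 13.2 TPM against 5.64 to 7.60 TPM without overlap.

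**Figure D4:**
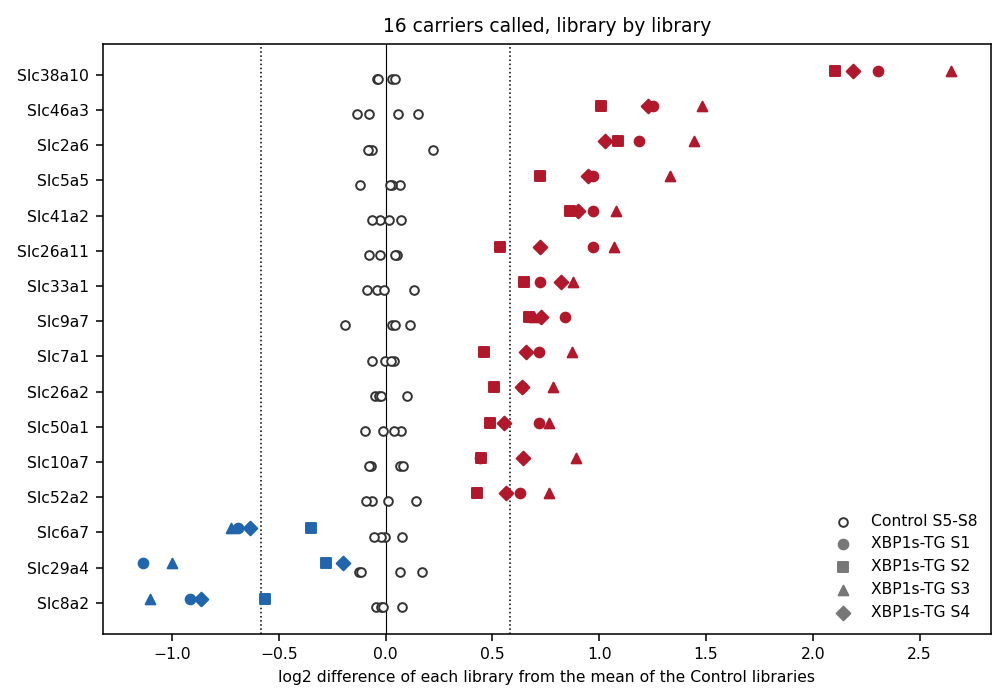
Log2 difference of each library from the Control mean for the 13 carriers that rose (red) and 3 of the 4 that fell (blue), with control libraries as open circles. Among the XBP1s-TG libraries S3, the one with the most Xbp1, is the highest in 12 of the 13 risers in TPM, and S2, with the least, is the lowest in 11.

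Across the 13 risers, S3 was the highest of the 4 XBP1s-TG libraries in TPM for 12 and S2 the lowest for 11. Among the 108 carriers not called, S3 was the highest for 42 and S2 the lowest for 30. Of the 4 fallers S3 was the lowest for 3, while S2 was the highest for 2 and S4 for the other 2. Whether Xbp1 dose has a part in this order was not tested.

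Neurons and chloride formed another set. Of 9 carriers listed as neuronal, for transmitters, calcium and chloride, 0 rose and 2 fell, Slc6a7 and Slc8a2. Over all genes tested 4.96% rose and 2.42% fell. On plain TPM, and also without S1 and S3, 1 of the 9 fell. Slc8a2 was the only calcium carrier put on this list, which left out Slc8a1 and Slc8a3. Slc8a2 encodes NCX2, a sodium-calcium exchanger of the neuronal surface. It had 170, 210.5, 154 and 173 TPM in S1 to S4 and 285, 299, 301 and 316 TPM in S5 to S8. All XBP1s-TG libraries were below Control, S3 the furthest. The means were 177 ± 24.04 TPM and 300.0 ± 12.7 TPM (SD, n = 4 each), a log2 fold change of -0.86 (SE 0.10, adjusted p = 0.000118 from limma). Its relatives Slc8a1 (-0.13, 95% interval -0.33 to 0.07) and Slc8a3 (0.14, 95% interval -0.03 to 0.31) did not pass the test. Slc9a5 (NHE5), a sodium-proton exchanger found mainly in brain, had 6.82, 6.79, 4.53 and 5.74 TPM against 9.68, 8.57, 10.9 and 7.37 TPM (-0.54, adjusted p = 0.00274 from limma). It passed the fold limit where S1 was left out (-0.59).

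Slc12a5 encodes KCC2, which extrudes chloride from mature neurons and is the most abundant of the 5 cation-chloride cotransporters. It was at 183, 189, 181 and 175 TPM in S1 to S4 and at 226, 228, 250 and 218 TPM in S5 to S8. The groups did not overlap, and the log2 fold change of -0.44 (SE 0.05, 95% interval -0.55 to -0.33, adjusted p = 0.000108 from limma) stayed short of the fold limit. Slc12a2, NKCC1, which brings chloride in and is also a carrier of the choroid plexus, had -0.22 with overlap (95% interval -0.65 to 0.21). The other 3 cotransporters had -0.03 to -0.20, so none of the 5 was positive. On plain TPM 1 of the 5 was positive, Slc12a4 with 0.05, and the median of the 5 was -0.09 in place of -0.20. Without S1 and S3, 2 of the 5 were positive, and Slc12a2 had 0.09.

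None of the 11 carriers classed under glutamate, GABA, glycine and monoamine transmitters rose or fell. The faller Slc29a4, a monoamine carrier, was not among them, as it was classed with nucleosides, vitamins and choline. At the adjusted p alone 2 of the 11 were higher and 1 lower in limma, as at an unadjusted p under 0.05. The unequal-variance test per gene and voom on the recovered reads called 0 of the 11 either way. Slc17a7 (VGLUT1), which loads glutamate into vesicles of hippocampal excitatory neurons and was the most abundant carrier, was at 1690, 1761, 1695 and 1576 TPM in S1 to S4 and 1548, 1484, 1461 and 1647 TPM in S5 to S8. The groups overlapped (0.16, 95% interval 0.05 to 0.27, adjusted p = 0.0195 from limma). The value was 0.02 with median centring, and the adjusted p was 0.151 without S1 and S3 and 0.0518 to 0.0556 without S1, S6 or S7 alone. Slc17a6 (VGLUT2) was at 21.7 to 32.3 TPM against 9.71 to 29.3 TPM, with overlap (0.31, 95% interval -0.23 to 0.85). Slc32a1 (VGAT), which loads GABA into vesicles of interneurons, was at 102 to 120.5 TPM against 94.4 to 117 TPM (-0.05, 95% interval -0.23 to 0.13). Slc1a1, the glutamate carrier of neurons, had 0.03 (95% interval -0.06 to 0.12). For Slc32a1 24.9% and for Slc1a1 31.9% of the exon bases are shared with a gene on the other strand of a mean of 1.44 and 2.48 TPM. Slc6a17, a vesicular amino acid carrier, had 0.09 (adjusted p = 0.0665 from limma). Slc1a6, a glutamate carrier best known from Purkinje cells, was below Control in every library (-0.36, adjusted p = 0.001).

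Of 8 pyramidal neuron markers, 1 fell in limma (2 by voom), 6 were lower at an unadjusted p under 0.05 and 1 was higher, and their summed level was 4892 to 5681 TPM in XBP1s-TG against 6236 to 7051 TPM in Control. Slc17a7 is one of these 8. The 8 interneuron markers, of which 0 were called by limma or voom and 2 were higher and 1 lower at an unadjusted p under 0.05, summed to 2826 to 3471 TPM against 2424 to 2536 TPM. No marker of either list was at 0 in all libraries. Their part in the neuronal carriers was not tested. In bulk tissue, fewer cells of a type and less RNA per cell cannot be told apart.

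Of 10 carriers listed for astrocytes, all 10 were tested and 0 rose or fell. By voom and by the unequal-variance test it was also 0. At the adjusted p alone 2 were higher and 0 lower in limma, and 2 and 1 at an unadjusted p under 0.05. Slc1a2 (GLT-1), which clears most synaptic glutamate, was at 651, 692, 625 and 643 TPM in S1 to S4 and 730, 611, 688 and 574 TPM in S5 to S8. The groups overlapped, with 0.01 (95% interval -0.16 to 0.19). Slc1a3 (GLAST) had -0.06 (95% interval -0.17 to 0.04). Slc6a11 (GAT3), which takes up GABA, was at 133 to 153 TPM against 111 to 128 TPM, without overlap (0.17, adjusted p = 0.0165 from limma, or 0.134 without S1 and S3). Slc15a2 had 0.27, Slc7a10 0.04, Slc38a3 -0.03 and Slc14a1 -0.12, and none of these 4 passed the adjusted p. The 8 astrocyte markers summed to 1244 to 1416 TPM against 1146 to 1246 TPM, with 2 higher and 3 lower at an unadjusted p under 0.05 and 0 called by limma or voom. Of the 8 carriers listed for the blood-brain barrier 4 were tested, and 0 rose or fell by limma or voom, with 1 higher at an unadjusted p under 0.05. Besides Slc2a1 and Slc7a5 these were Slc16a1, a lactate carrier, with -0.03 (95% interval -0.13 to 0.07) and Slc22a8 with -0.18. The 8 endothelial markers summed to 202 to 241 TPM against 206 to 249 TPM, with 3 of the 8 lower at an unadjusted p under 0.05. The 8 markers of microglia were all lower at an unadjusted p under 0.05, while limma and voom called 0 of them. Of all genes tested 30.8% were lower and 24.7% higher at that p. The microglia markers summed to 442 to 522 TPM against 507 to 537 TPM, and none was positive on plain TPM or with median centring. Their part in the carriers was not tested.

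Carriers known from the choroid plexus were low in S1 and S3, as were the plexus markers. Of the 12 markers limma called 0, with 3 lower at an unadjusted p under 0.05, whereas voom called 7 lower, and none was at 0 in all libraries. Of 11 listed, 9 had a mean of at least 5 TPM, and S1 and S3 were the lowest of all 8 libraries for 5 of these, Slc4a5, Slc2a12, Slc13a4, Slc4a2 and Slc29a4. Over all 125 carriers this held for 13. Since the pattern was known when the carriers were chosen, it is a description with no test. Slc4a5, a sodium-bicarbonate carrier of the plexus, had 0.165 TPM in S1 (11 reads) and 0.283 TPM in S3 (20 reads). It was at 9.45 TPM in S2, 16.3 TPM in S4 and 6.77 to 15.4 TPM in Control. S2 thus lay within the control range and S4 just above it. Slc2a12, a glucose and urate carrier, was at 2.32 and 2.71 TPM in S1 and S3, 11.9 and 18.5 TPM in S2 and S4 and 8.02 to 16.7 TPM in Control. A share of 9.61% of its exon bases is in Tbpl1 on the other strand, at a mean of 54.8 TPM. Slc13a4, a sulfate carrier of the plexus and the meninges, had 2.69 TPM in S1 with 7.53 TPM in S3, against 11.7 and 18.6 TPM in S2 and S4 and 9.86 to 18.7 TPM in Control. Slc4a2, which exchanges chloride for bicarbonate, was at 17.2 and 17.4 TPM in S1 and S3 and 33.2 and 44.8 TPM in S2 and S4, with 25.3 to 46.5 TPM in Control. It shares 13.7% of its exon bases with Fastk (mean 45.3 TPM).

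Between the groups these 4 had log2 fold changes of -1.31 (SE 0.65) for Slc4a5, -0.87 (SE 0.46) for Slc2a12, -0.75 (SE 0.38) for Slc13a4 and -0.54 (SE 0.28) for Slc4a2. None passed the adjusted p (0.12 to 0.15 from limma). All 4 fell where S4 was left out, with -1.87, -1.27, -1.07 and -0.78. Without S1 and S3 their values were 0.02, 0.06, -0.10 and -0.00, and the choroid plexus list, 10 of whose carriers then had a mean of at least 5 TPM, had a median of 0.04. With all libraries the median of the 9 was -0.54, with 1 up (Slc5a5) and 1 down (Slc29a4). Slc31a1, a copper carrier, had 28.8, 37.9, 32.8 and 48.2 TPM in S1 to S4 and 22.8 to 36.03 TPM in Control, so its lowest library was S8. Slc12a2 likewise was lowest in S8, at 40.1 TPM, against 45.3 and 42.8 TPM in S1 and S3. Slc22a8 was at 8.47 to 12.1 TPM against 8.95 to 13.7 TPM. Slc5a5, listed for the plexus as well, was at 55.2 and 72.5 TPM in S1 and S3, the libraries low in plexus markers. It was at 45.2 TPM in S2 and at 53.7 TPM in S4, the library with the highest marker sum, so S4 lay close to S1.

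**Figure D5:**
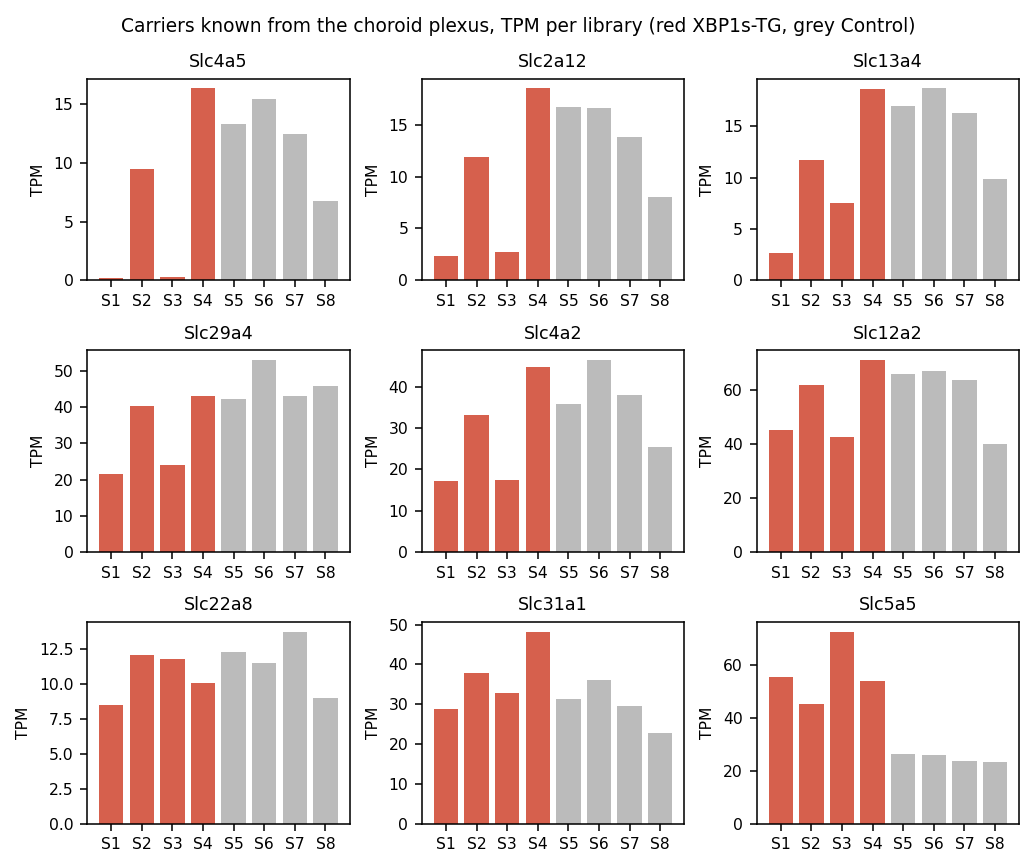
Bars are the TPM in each library of the 9 carriers listed for the choroid plexus, on an axis from 0. S1 and S3 are the lowest of 8 libraries for Slc4a5, Slc2a12, Slc13a4, Slc4a2 and Slc29a4, whereas Slc5a5 is above Control in all 4 XBP1s-TG libraries.

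Slc29a4, which fell, was likewise low in S1 and S3. Slc29a4 encodes a monoamine carrier of neurons and of the choroid plexus. It was at 21.6, 40.4, 23.99 and 43.0 TPM in S1 to S4 and 42.3, 53.0, 43.2 and 45.9 TPM in S5 to S8. The groups overlapped, and the log2 fold change was -0.65 (SE 0.20, adjusted p = 0.0257 from limma). Without S1 and S3 it was -0.24 (adjusted p = 0.0856), and without S1, S3, S6 or S8 alone the adjusted p was 0.0538 to 0.0683. The part of plexus tissue in this value was not tested. The risers Slc38a10, Slc46a3, Slc2a6, Slc5a5, Slc41a2, Slc26a11, Slc33a1 and Slc9a7 rose without S1 and S3 too, with log2 fold changes of 2.15, 1.11, 1.05, 0.83, 0.87, 0.62, 0.73 and 0.69.

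Short of the fold limit, 24 more carriers were higher and 16 lower at the adjusted p alone, and so were 17.4% and 23.7% of all genes tested. Of these 40 carriers 17 had an adjusted p of 0.05 or more without S1 and S3. Passes also grew fewer over all genes in that smaller set of libraries. At the adjusted p, with no fold limit, 1766 genes were higher and 1827 lower, against 2607 and 3052 with all libraries. Slc45a4, a proton-coupled sugar carrier, was at 30.04 to 31.7 TPM against 19.9 to 22.8 TPM, without overlap (0.36, adjusted p = 5.55e-05 from limma). Slc29a3, the nucleoside carrier of lysosomes, had 0.33, Slc7a14 had 0.25 and Slc15a4, a histidine and peptide carrier of lysosomes, had 0.21. On the lower side, Slc16a11 was at 7.94 to 11.0 TPM against 10.4 to 16.04 TPM, with overlap (-0.45, adjusted p = 0.00443 from limma). Slc4a3, a chloride-bicarbonate exchanger, had -0.33 with overlap, and Slc24a4, a potassium-dependent sodium-calcium exchanger, had -0.30 with overlap, or -0.15 (adjusted p = 0.0898) without S1 and S3. The value of Slc2a3 was -0.08 on plain TPM.

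Carriers of the leptomeninges were mostly under the limit, and 2 of the 6 listed were tested. Slc6a13 (GAT2), a GABA and taurine carrier, was at 4.86, 4.39, 11.0 and 4.03 TPM in S1 to S4 and 4.34 to 9.12 TPM in Control. S3 stood above the other XBP1s-TG libraries, and the groups overlapped (-0.19, 95% interval -0.73 to 0.35). Slc13a3, a dicarboxylate carrier, had -0.08 and was also highest in S3, at 10.5 TPM. Slc23a2, an ascorbate carrier of neurons and the most abundant vitamin carrier, had 0.03 (95% interval -0.14 to 0.21). Slc16a13, just inside the limit on the mean, had -0.10.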

How the data were processed

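The authors prepared stranded mRNA libraries (KAPA kit), sequenced them on an Illumina HiSeq, checked reads with FastQC, trimmed them with Trimmomatic and mapped them to GRCm38 with CLCbio Genomics Workbench. The strand setting of the counting is not given in the sources used here. The values deposited by the authors are TPM per gene, before any log step. Their group means, fold changes and p-values were not used.

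The values were taken to log2(TPM + 2), and the 8 columns were then quantile normalized (limma 3.58.1, R 4.3.3). Genes with a mean of at least 5 TPM entered limma's lmFit, followed by eBayes with trend, and p-values were adjusted by Benjamini-Hochberg over all 11677 genes. The study's limit on low values was replaced by this mean over both groups, so that all 125 carriers were tested. limma replaced its unequal-variance test per gene because each group has 4 libraries. SDs are of TPM. The fit was tested on simulated data. Whole reads were recovered from the TPM values for 29237 of 29237 genes above 0 (tolerance 0.001 reads), and voom on these reads was added after seeing the data. Library columns are mapped to groups only, and 0 columns of single samples were left out. The 4 samples of a group are taken as separate mice.

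Carriers, lists and classes were chosen with earlier results of these data known. The 62 carriers named by rule were those called, the members of the carrier lists, the most abundant of each class, those next to the limit and those changed 1.4 to 1.5-fold at an adjusted p under 0.05. The list by organelle, and all other carriers named, were chosen after their values were seen. The named positions are those of the table on GRCm38, exon overlaps are from GENCODE M21, and promoters are from RefSeq (GRCm38.p6). The GENCODE exon bases exceed those behind the TPM for Slc26a10 (4027 against 2215), Slc1a1 (8257 against 6170) and Slc4a2 (8322 against 6195). For these genes the share of the bases counted is not known. Results of a few carriers are not reported here, in text or figures, though counts over all carriers include them.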

Additional observations from a re-analysis of the deposited data

Results flagged for a closer look

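Among 124 groups of 4 libraries (62 named carriers in each group), 6 had a library far from the other 3 by Dixon's test, which chance alone flags in about 1 in 20 groups. In Control, Slc10a7 was at 5.15 TPM in S7, above the others, and S8 was the low library for Slc6a17 (156 TPM) and for Slc12a2 (40.1 TPM). In XBP1s-TG, S3 was the high library for Slc36a1 (66.3 TPM) and for Slc6a13 (11.0 TPM), and S2 was the high one for Slc6a7 (58.5 TPM). The Slc6a7 value lay nearest to Control among the XBP1s-TG libraries, in the library with the least Xbp1. Over the 4 fallers, S2 was the highest XBP1s-TG library for 2 and S4 for the other 2.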

How the results depend on the processing

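No paired analysis was possible because the library columns carry no replicate numbers. Over 18 other settings, 8 of the 17 calls held in each one, 7 upward and 1 downward (Slc8a2), and Slc26a11 held wherever it was tested. No result named here turned its direction past the threshold. The count of risers was 10 to 17 under the other scalings, filters, pseudocounts and tests, 11 to 14 with each library left out, 8 without S1 and S3 and 37 at the adjusted p alone. The 13 risers include Slc10a7, Slc26a11 and Slc26a2, which were not tested under the filter of at least 1 library above 14 TPM, where 10 rose. With median centring 10 rose as well, without Slc10a7, Slc26a2 and Slc52a2, which were at 0.55, 0.58 and 0.57. The count of fallers, 4, was less stable. It was 1 without normalization beyond TPM, 2 by the unequal-variance test per gene, 2 without S1 and S3, 7 by voom on the recovered reads and 20 at the adjusted p alone. With each library left out it was 1 to 8, at its lowest without S3 and its highest without S4, where Slc4a5, Slc2a12, Slc13a4 and Slc4a2 were added. It was 2 without S1, S6 or S8. With no filter Slc29a4 was lost, and 3 fell. By voom, Slc4a5 fell by 2.87 on the log2 scale (adjusted p = 0.0427). With a pseudocount of 0.1, Slc11a2 (0.60), Slc13a5 (0.68), Slc9a5 (-0.68) and Slc26a10 (-0.74) were past the fold limit as well, since the added value damps low genes less. The causes of the other changes were not tested.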
